A study of Mus musculus with 5 samples.

Results

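The genes described here are 41 markers of white blood cells, grouped as macrophage and dendritic genes (18), lymphocyte genes (14) and neutrophil genes (9). They were taken by name among 20392 genes named on an array of papilla cell RNA. The first group includes 3 genes that all leukocytes use (Ptprc, Cd53 and Laptm5). The mice carried histone H2B fused to GFP (strain H2B-GFP), and doxycycline was given in embryonic life. A chase to about 2 to 3 months of age followed, so that cells which had divided little still held the label. Kidney papillae, the innermost tips of the medulla, were dispersed with collagenase. Live cells were sorted into a label-retaining GFP+ and a GFP- population. The labels call the papillae control, and both populations share strain, age and doxycycline. Which promoter drives the fusion, how many animals were behind a sample and whether leukocytes were gated are not given in the sources used here.

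Leukocytes carry CD45, the phosphatase encoded by Ptprc, and each lineage adds proteins of its own. Macrophages and dendritic cells of the renal interstitium engulf debris and present peptides on MHC class II molecules. T cells read such peptides through the CD3 complex, B cells signal through CD79, and neutrophils store antimicrobial proteins in granules. In a kidney digest all of these cells are a minority beside the epithelium. In bulk samples like these, fewer cells of a type and less RNA per cell cannot be told apart.

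Each of 5 biological replicates was 1 two-colour Agilent array. Per the labels the cDNA had passed a global PCR amplification (SuperAmp), with Cy5 on the GFP+ and Cy3 on the GFP- sample. No dye was swapped, so a dye effect shared by all arrays is part of every ratio. Ratios are given as log2 of the second over the first deposited intensity after loess normalization. No header says which intensity is which dye, so reading the ratios as GFP+ over GFP- is likely but not settled. It rests on the Agilent convention of Cy5 over Cy3. If it is the opposite, all signs turn and the channel names change places. Above background here means an intensity of at least 3 times the single negative control probe in the same channel. Between 57.7% and 75.3% of probes passed in the GFP- channel, and between 59.4% and 72.5% in the GFP+ channel. Across all genes replicate 1 correlated negatively with the other arrays (Pearson r from -0.16 to -0.060), which correlated at 0.053 to 0.20 among themselves. Genes are not independent replicates. All 10 listed markers of papilla epithelium, among them the water channels Aqp1 and Aqp2, were above background in both channels of every array.

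Most leukocyte markers gave a signal in both sorted populations, at a share near that of all named genes. With the brightest probe for each gene, 25 of 41 genes were above background in all 10 channels, against 55.4% of named genes. These were 12 of 18 macrophage and dendritic, 9 of 14 lymphocyte and 4 of 9 neutrophil genes. Per array, 29 to 35 of 41 were above background in the GFP- channel and 30 to 37 in the GFP+ channel. The corresponding shares of all named genes were 72.3% to 86.8% and 75.1% to 85.3%. Gzma, a granzyme of cytotoxic lymphocytes, S100a8, a calcium-binding protein of neutrophils, and Csf3r, the receptor for granulocyte colony-stimulating factor, were not above background in any channel. Lck, the kinase of T cell receptor signalling, was above it only in the GFP+ channel of replicates 4 and 5. Mrc1, the macrophage mannose receptor, was above it only in the GFP+ channel of replicate 2, at 12.3 times the negative control. C1qc, a chain of the complement protein C1q, was above it in the GFP- channel of replicates 1 and 5 and the GFP+ channel of replicate 5. These 6 genes did not pass the filter on dim probes, which asked for a channel above background on at least 3 arrays, and 35 were tested.

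**Figure D1:**
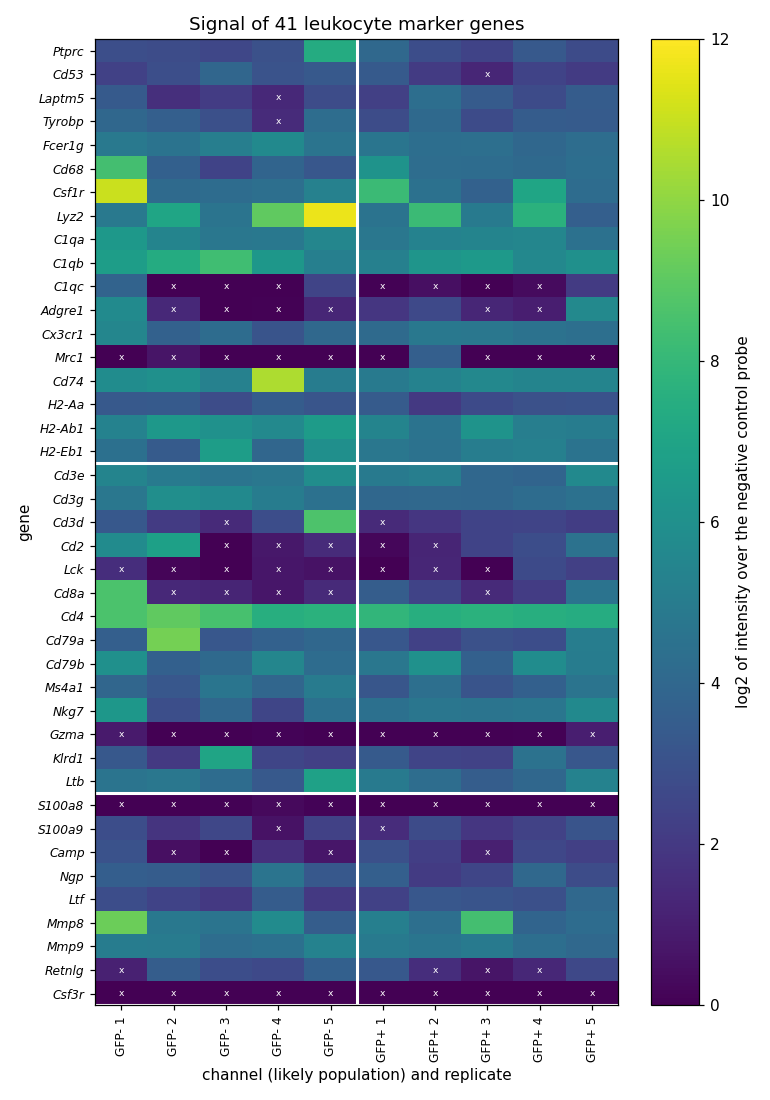
Signal of the 41 genes (top to bottom) in the GFP- and GFP+ channels of replicates 1 to 5 (left to right), as log2 of the deposited intensity over the negative control probe of that channel. A white x marks a value below 3 times the negative control; white lines part the channels and the 3 lineages. Gzma, S100a8 and Csf3r are marked throughout, and single bright fields stand out for genes such as Lyz2, Cd74 and Cd79a.

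None of the leukocyte genes differed between the sorted populations by the test used. Of 35 tested genes, limma called 0 higher and 0 lower at an adjusted p of 0.05. The background over 17773 genes was 0% on the higher and 0% on the lower side. Their adjusted p values in limma were between 0.827 and 0.988. At an unadjusted p under 0.05 there were 0 leukocyte genes, where 889 genes (5%) of the whole table lay. Means were below 0, towards GFP- cells, for 27 of 35 genes, where 50.2% of all genes lay below 0. Medians over the 5 arrays were below 0 for 23 of them, against 46.5% of all genes. On single arrays the genes split more evenly: 19, 15, 16, 14 and 12 of 35 lay above 0 on replicates 1 to 5. The shares of all genes above 0 on these arrays were 52.9, 52.8, 51.6, 52.1 and 49.8%. Without replicate 5, 22 means lay below 0, and without replicate 1 it was 23. With the sign of replicate 1 turned it was 20. Of all genes 47.8% lay below 0 without replicate 5, 50.5% without replicate 1 and 52.8% with its sign turned. The median SD over the arrays was 0.99 for leukocyte genes and 1.45 for all genes.

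**Figure D2:**
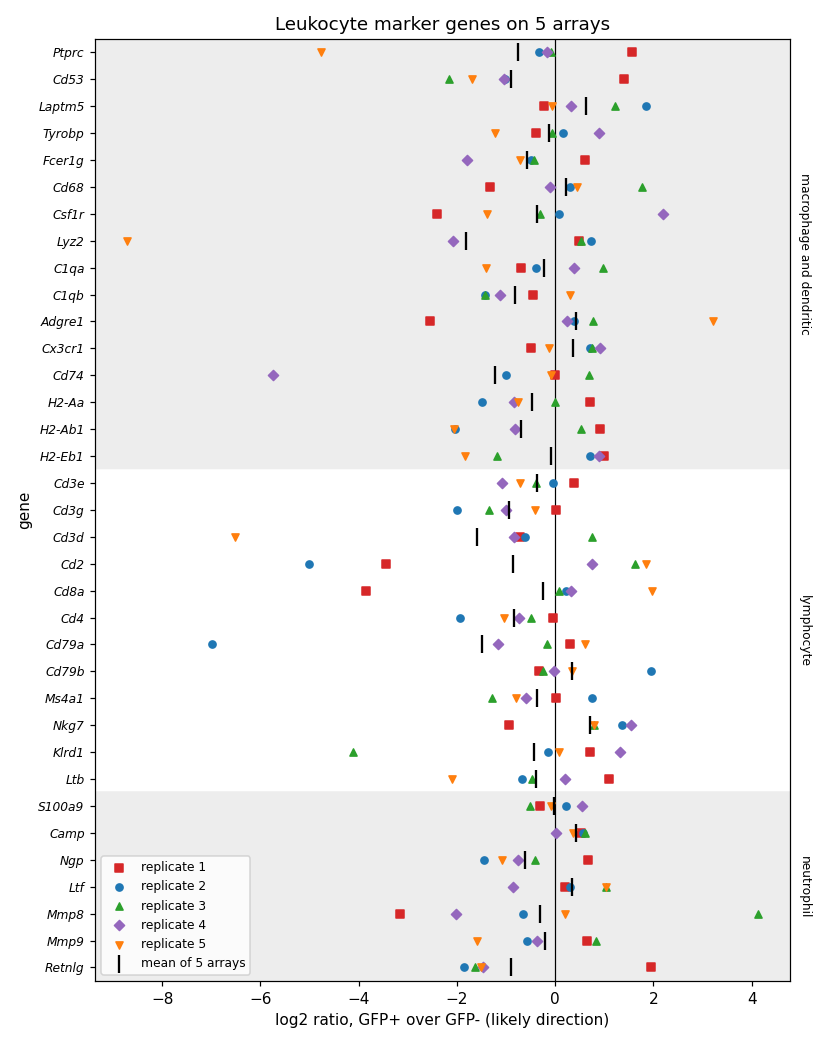
Log2 ratio, GFP+ over GFP- in the likely direction, of the 35 tested genes on each of 5 arrays (coloured symbols), with the mean over the arrays (black bar) and the lineages shaded. Most genes lie on both sides of 0, and a few single arrays reach below -4.

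The 3 genes shared by all leukocytes did not move together. Ptprc encodes CD45, the phosphatase of the leukocyte surface, and had log2 ratios of 1.57, -0.33, -0.088, -0.16 and -4.77 on replicates 1 to 5. Replicate 5 lay far below the rest and replicate 1 above it, and the 3 others lay near 0. Cd53, a tetraspanin of leukocytes, had 1.40, -1.03, -2.17, -1.04 and -1.70 on replicates 1 to 5. Here replicate 1 stood alone above 0. Laptm5, a lysosomal membrane protein of blood cells, had -0.23, 1.85, 1.22, 0.33 and -0.058 on replicates 1 to 5, with replicates 2 and 3 highest. The means were -0.75 ± 2.37 (SD, n = 5), -0.91 ± 1.38 (SD, n = 5) and 0.62 ± 0.88 (SD, n = 5). Laptm5 had the highest mean of the macrophage and dendritic genes. Without replicate 5 the Ptprc mean was 0.25. Of the 4 Ptprc probes only this 1 passed the filter. The 3 genes of the whole table whose ratios over the 5 arrays lay nearest to those of Ptprc were Padi6, Prmt8 and Fxyd2, at Euclidean distances of 0.79, 0.90 and 0.99. Each of them shared the low value on replicate 5. No leukocyte marker was among the 3, which says little, since only 35 listed leukocyte genes stood among 17773 tested.

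Tyrobp and Fcer1g encode adaptor proteins through which activating receptors of myeloid and NK cells signal. Tyrobp had -0.39, 0.17, -0.069, 0.88 and -1.23 on replicates 1 to 5, with replicate 4 highest and replicate 5 lowest. Fcer1g had 0.61, -0.48, -0.43, -1.81 and -0.72 on replicates 1 to 5, with replicate 4 lowest. On 2 of 5 arrays both adaptors had the same sign.

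Macrophage genes lay on both sides of 0 on every array. Cd68, a lysosomal protein of macrophages, had -1.33, 0.30, 1.76, -0.10 and 0.45 on replicates 1 to 5, lowest on replicate 1 and highest on replicate 3. Csf1r, the receptor for the growth factor that maintains macrophages, had -2.41, 0.068, -0.31, 2.20 and -1.38 on replicates 1 to 5, again lowest on replicate 1. Lyz2 encodes lysozyme, and a probe for it may also bind the closely related Lyz1. Its ratios were 0.49, 0.72, 0.53, -2.09 and -8.72 on replicates 1 to 5. Lyz2 had the lowest mean of the macrophage and dendritic genes, -1.81 ± 4.03 (SD, n = 5), and without replicate 5 it was -0.087. Adgre1, the F4/80 antigen of mouse macrophages, had -2.54, 0.38, 0.78, 0.23 and 3.22 on replicates 1 to 5, with the ends of its range on replicates 1 and 5. It was above background on 1 array in the GFP- channel and on 3 in the GFP+ channel. Cx3cr1, the fractalkine receptor of resident macrophages, had -0.48, 0.71, 0.76, 0.91 and -0.12 on replicates 1 to 5. Its range was narrow with the brightest probe, and 3 arrays lay above 0. C1qa and C1qb encode chains of the complement protein C1q, which tissue macrophages secrete. C1qa had -0.69, -0.40, 0.97, 0.38 and -1.40 on replicates 1 to 5 and C1qb had -0.45, -1.44, -1.42, -1.12 and 0.31 on replicates 1 to 5. These chains, which assemble into 1 protein, had the same sign on 2 of 5 arrays. C1qb was below 0 on all but replicate 5, with a mean of -0.82 ± 0.75 (SD, n = 5) (limma, adjusted p 0.827).

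The MHC class II genes encode the molecules that present peptides to helper T cells. They sit side by side on chromosome 17, apart from Cd74, and share a promoter element called the Y box, which binds the factor NF-Y. The stretches below end at the base before the annotated gene start (RefSeq, GRCm38.p6). They are shown because the element is present in both, and the capitals mark it.
H2-Aa, chr17:34287824-34287923, minus strand: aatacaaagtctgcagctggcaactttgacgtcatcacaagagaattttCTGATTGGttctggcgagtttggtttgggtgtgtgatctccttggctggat
H2-Eb1, chr17:34305767-34305866, plus strand: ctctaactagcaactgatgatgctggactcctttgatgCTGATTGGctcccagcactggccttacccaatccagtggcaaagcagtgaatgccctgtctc
The letters CTGATTGG, searched on both strands, begin 51 bases before the start of H2-Aa and 62 bases before that of H2-Eb1. Among all 32851 listed promoters, 3.83% hold them in the 250 bases before the start. Of the 41 leukocyte genes 29 had a listed promoter, and 2 held these letters. A match describes the sequence and does not show binding.

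H2-Aa, the alpha chain of the I-A molecule, had log2 ratios of 0.72, -1.48, -0.0087, -0.83 and -0.76 on replicates 1 to 5. H2-Ab1, its beta chain, had 0.92, -2.05, 0.53, -0.81 and -2.06 on replicates 1 to 5. Both were highest on replicate 1 and lowest or near lowest on replicate 2, and they had the same sign on 4 of 5 arrays. H2-Eb1, the beta chain of I-E, had 0.99, 0.71, -1.19, 0.90 and -1.83 on replicates 1 to 5, and its sign matched that of H2-Aa, the other gene with the printed element, on 3 of 5 arrays. Cd74, the invariant chain that escorts class II molecules, had 0.0018, -0.998, 0.69, -5.75 and -0.082 on replicates 1 to 5. Its value on replicate 4 stood far below the other 4, and without it the mean was -0.10. With the brightest probes all 4 class II means were below 0, from -1.23 to -0.085, and none passed the test. The second H2-Aa probe had 0.15, 0.54, 0.45, 1.37 and 0.61 on replicates 1 to 5, above 0 on every array. With all probes averaged the H2-Aa mean was 0.076 and the H2-Ab1 mean -0.13. The median of the 4 genes by their brightest probes was 0.82, -1.24, 0.26, -0.82 and -1.30 on replicates 1 to 5. A list of endothelial markers, with 3 of 5 genes tested (Pecam1, Cdh5 and Emcn), had medians of 0.80, -1.17, 0.0041, -1.18 and -1.35 on the same arrays. Its summed intensity ranged from 1168 to 14303 in the GFP- and from 1027 to 2856 in the GFP+ channel, and Kdr and Tie1 lay below the filter. A higher value on replicate 1 than on replicates 2, 4 and 5 was not particular to these 2 lists. The interstitial medians were 0.31, -0.34, -0.63, -0.38 and -1.09, and the neutrophil gene Ngp had 0.67, -1.46, -0.42, -0.76 and -1.08. The part of endothelial cells in the class II values was not tested.

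By their brightest probes the 6 T cell genes had means below 0, and none passed the test. Cd3e, Cd3g and Cd3d encode the signalling chains of the T cell receptor complex. Cd3e had 0.39, -0.049, -0.39, -1.08 and -0.72 on replicates 1 to 5, and Cd3g had 0.0087, -2.003, -1.34, -1.003 and -0.41 on replicates 1 to 5. These chains had the same sign on all 5 arrays, with replicate 1 highest. Cd3d had -0.72, -0.62, 0.76, -0.84 and -6.52 on replicates 1 to 5, with replicate 5 far below the others and only replicate 3 above 0. Without replicate 5 its mean was -0.36. Cd3g had the lowest unadjusted p of all tested leukocyte genes (0.0851, adjusted p 0.827, limma), with a mean of -0.95 ± 0.79 (SD, n = 5) and 4 of 5 arrays below 0. Cd4, the coreceptor of helper T cells, had -0.044, -1.94, -0.48, -0.73 and -1.04 on replicates 1 to 5 and was below 0 on all 5 arrays. It was the only tested leukocyte gene that was, where 2.89% of all genes were. Its mean was -0.85 ± 0.71 (SD, n = 5) with an adjusted p of 0.827 in limma. Cd2, an adhesion receptor of T and NK cells, had -3.44, -5.02, 1.62, 0.74 and 1.86 on replicates 1 to 5. It was far below 0 on replicates 1 and 2 and above 0 on the other 3, and its mean without replicate 2 was 0.19. Its GFP- channel was above background on replicates 1 and 2 only. Cd8a, the coreceptor of cytotoxic T cells, had -3.85, 0.21, 0.073, 0.32 and 1.97 on replicates 1 to 5, with replicate 1 alone below 0. The GFP- channel of this probe was above background on replicate 1 only. The other 2 tested Cd8a probes had means of 0.60 and 0.10, and without replicate 1 the reported mean was 0.65.

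B cell and cytotoxic genes did not share a direction. Cd79a and Cd79b encode the paired signalling chains of the B cell receptor. Cd79a had 0.30, -6.98, -0.17, -1.16 and 0.60 on replicates 1 to 5, where replicate 2 stood far below the others. Cd79b had -0.33, 1.94, -0.26, -0.024 and 0.34 on replicates 1 to 5, and the same replicate 2 was its highest. Ms4a1, the CD20 antigen, had 0.018, 0.76, -1.28, -0.59 and -0.80 on replicates 1 to 5. Nkg7, a granule protein of cytotoxic lymphocytes, had -0.94, 1.36, 0.78, 1.54 and 0.78 on replicates 1 to 5 and the highest mean of the lymphocyte genes, 0.70 ± 0.98 (SD, n = 5). Klrd1, the CD94 chain of NK cell receptors, had 0.72, -0.15, -4.12, 1.32 and 0.072 on replicates 1 to 5, with replicate 3 far below 0. Ltb, which encodes lymphotoxin beta, had 1.09, -0.67, -0.48, 0.21 and -2.10 on replicates 1 to 5, highest on replicate 1 and lowest on replicate 5. The lowest lymphocyte mean was that of Cd3d, -1.59 ± 2.83 (SD, n = 5).

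Neutrophil genes included the only tested leukocyte gene above 0 on all 5 arrays. Camp encodes the antimicrobial peptide cathelicidin and had 0.53, 0.57, 0.60, 0.017 and 0.36 on replicates 1 to 5. Of all genes 4.64% were above 0 on all 5 arrays. The Camp mean was 0.42 ± 0.24 (SD, n = 5) with an adjusted p of 0.842 in limma, and its GFP- channel was above background on 2 arrays. Ngp, a neutrophil granule protein, had 0.67, -1.46, -0.42, -0.76 and -1.08 on replicates 1 to 5, with replicate 1 alone above 0. Ltf, the iron-binding protein lactoferrin, had 0.21, 0.31, 1.04, -0.87 and 1.04 on replicates 1 to 5, with replicate 4 alone below 0. Mmp8, the collagenase of neutrophils, had -3.16, -0.65, 4.13, -2.03 and 0.20 on replicates 1 to 5 and the widest range of the group. Mmp9, a gelatinase that macrophages and other cells also make, had 0.65, -0.56, 0.83, -0.36 and -1.59 on replicates 1 to 5. S100a9, which pairs with S100a8 as calprotectin, had -0.32, 0.21, -0.50, 0.55 and -0.094 on replicates 1 to 5 and stayed close to 0. Retnlg, a resistin-like protein of neutrophils, had 1.96, -1.86, -1.64, -1.47 and -1.51 on replicates 1 to 5. Replicate 1 was above 0 and the others lay together below it. Retnlg had the lowest neutrophil mean, -0.91 ± 1.61 (SD, n = 5), and Camp the highest. Each passed the filter through the channel in which it was higher: for Retnlg 4 GFP- and 2 GFP+ values exceeded background, and for Camp 2 GFP- and 4 GFP+ values. Both drop out where both channels must be above background, so these extremes say nothing of the lineage.

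The lineages differed little from one another on the scale of the spread between arrays. Macrophage and dendritic genes had medians of -0.11, -0.13, 0.26, -0.13 and -0.997 on replicates 1 to 5, with 4 of 16 means above 0. Without the 3 genes that all leukocytes use, the medians were -0.39, 0.068, 0.53, -0.10 and -0.76, with 3 of 13 means above 0. The differences below keep these 3 genes. Lymphocyte genes had -0.018, -0.38, -0.32, -0.31 and -0.17, with 2 of 12 means above 0. Their medians were below 0 on all 5 arrays, which did not hold for the further lymphocyte genes given further on. Neutrophil genes had 0.53, -0.56, 0.60, -0.76 and -0.094, with 2 of 7 means above 0. Over all genes tested the medians were 0.093, 0.075, 0.039, 0.065 and -0.0037, and 49.8% of means were above 0. The median of the member means was -0.42 for macrophage and dendritic, -0.41 for lymphocyte and -0.21 for neutrophil genes. The macrophage and dendritic median minus the lymphocyte median was 0.018 ± 0.53 (SD, n = 5), above 0 on 3 of 5 arrays. Against neutrophil genes the difference was -0.17 ± 0.67 for macrophage and dendritic and -0.18 ± 0.56 for lymphocyte genes (SD, n = 5), each above 0 on 2 of 5 arrays. Each SD was larger than its mean difference.

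**Figure D3:**
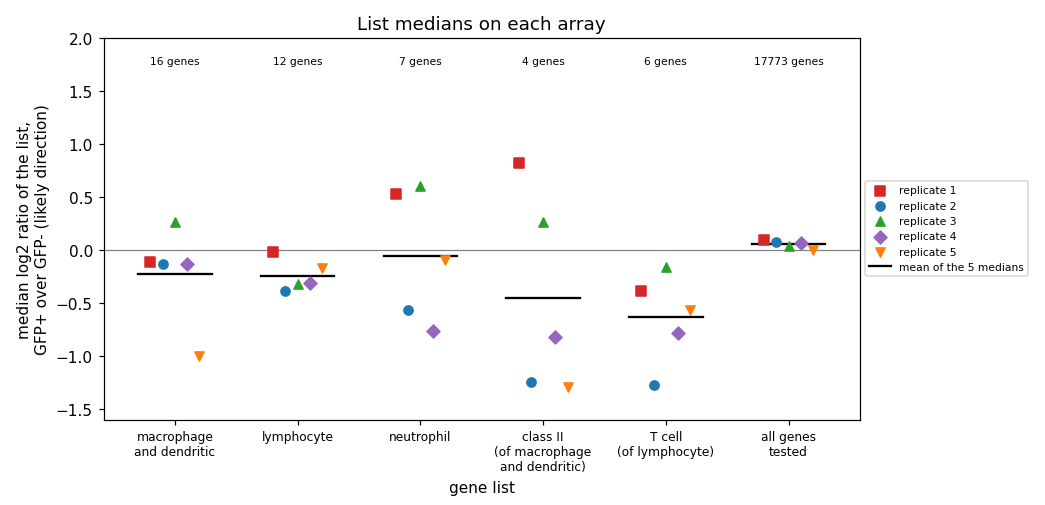
Median log2 ratio of the tested genes of each list on each of 5 arrays (coloured symbols), with the mean of the 5 medians (black line) and the number of genes above. The lymphocyte medians all lie below 0, the macrophage and dendritic and the neutrophil medians lie on both sides, and those of all genes stay close to 0.

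Across the 35 genes, replicate 1 ran against some of the other arrays. Its Pearson correlation was -0.0093, -0.53, -0.24 and -0.45 with replicates 2 to 5, given as a description over genes that share a sample and an amplification. Among replicates 2 to 5 the correlations ran from -0.14 to 0.25. Ratios at least 2-fold in either direction were found for 10, 13, 12, 13 and 18 of 35 leukocyte genes on replicates 1 to 5. As shares these were 28.6, 37.1, 34.3, 37.1 and 51.4%, against 49.5, 47.9, 42.0, 48.0 and 48.1% of all genes. Replicate 5 was the only array on which the share was higher for leukocyte genes.

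Most of the largest ratios came with 1 channel value far above the gene's own median. A channel value was set apart where it lay at least 16-fold above the gene's own median over the 10 normalized channel values, a limit chosen after the values were seen. In the GFP- channel 9 of 35 leukocyte genes had such a value, against 16.1% of all genes. In the GFP+ channel it was 1, Mmp8 on replicate 3, against 17.7% of all genes. Over all genes 46.3% of such values were in the GFP- channel. The lowest leukocyte value past the limit was that of Mmp8, 4.08 above its median on the log2 scale, and the highest short of it was also of Mmp8, 3.21 in the GFP- channel of replicate 1.

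The bright GFP- values fell on different arrays for different genes. On replicate 5 they were those of Lyz2, Cd3d and Ptprc, at 3236, 405 and 165 times the negative control. The GFP+ channel of that array had 12.2, 4.55 and 6.61 times. On replicate 2 Cd79a reached 709 and Cd2 114 times the negative control. Cd2 was also at 54.8 times in the GFP- channel of replicate 1, and Csf1r at 291 times in the GFP+ channel of replicate 1. Csf1r and Cd8a reached 2120.4 and 386 times on replicate 1, Klrd1 reached 129.5 on replicate 3, and Cd74 reached 1453 on replicate 4. Some of these values shared a channel: Lyz2 and Ptprc lay 6.36 and 4.29 above their own medians on the log2 scale in the GFP- channel of replicate 5, and Cd79a and Cd2 lay 6.02 and 4.55 above theirs in that of replicate 2. The median of the other genes of the lineage in the same channel was between -0.92 and 0.47 for the 10 genes. When Cd3d lay 6.40 above its own median on the log2 scale, the other 11 lymphocyte genes had a median deviation of 0.29 and a highest one of 2.90 (Ltb). When Cd74 lay 5.38 above its own, the other 15 macrophage and dendritic genes had a median of 0.052 and a highest of 2.97 (Lyz2). Cd79b, the partner chain of Cd79a, was in the GFP- channel of replicate 2 at 13.0 times the negative control.

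**Figure D4:**
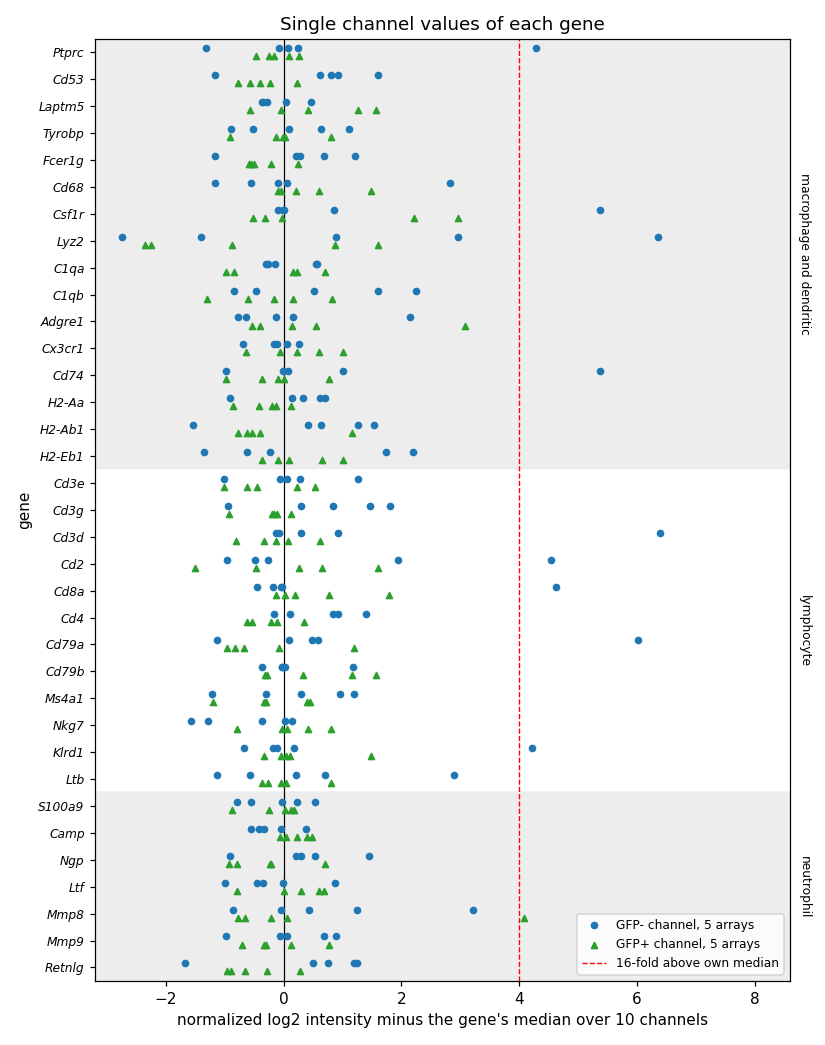
Normalized log2 intensity of each tested gene in the GFP- channel (blue circles) and the GFP+ channel (green triangles) of 5 arrays, minus the gene's median over all 10 values. Past the dashed line at 16-fold stand 9 GFP- values and 1 GFP+ value, that of Mmp8.

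Different probes of 1 gene gave different ratios. Of 35 tested leukocyte genes 10 had several tested probes, and in 3 all of them had means of one sign, against 45.7% of all such genes. The reported probe was the one with the highest mean log2 intensity over both channels of all arrays, so a bright value on 1 array counts towards that choice. The second Lyz2 probe had -0.60, 0.77, 0.44, 0.56 and 0.19 on replicates 1 to 5 and did not show the low value of replicate 5. In the GFP- channel of replicate 5 it was below background, at 2.81 times the negative control, where the brightest probe was at 3236. This limits what the second Lyz2 probe can show. Nkg7 had 2 probes of opposite sign on every array: the second had 0.84, -1.91, -0.93, -1.23 and -1.10, against the values given above. The 2 probes of Cx3cr1 also had opposite signs on every array, although both means were above 0. The second Cx3cr1 probe had 0.27, -0.93, -0.022, -0.35 and 1.63. H2-Ab1 had 4 tested probes. On replicate 5 they had -2.06, -4.10, -0.29 and 2.59, from the brightest to the dimmest. The 3 tested Csf1r probes had 2.20, 3.93 and 2.29 on replicate 4, all above 0, and -2.41, -1.04 and 2.88 on replicate 1. The second Cd4 probe had -1.47, -1.49, 0.16, 1.56 and -0.44, so that the sign shared by all 5 arrays held for the brightest probe only. Ltf was among the 3 genes whose probes had means of one sign, and its second probe had 0.74, -0.079, 0.68, -0.53 and -0.060.

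**Figure D5:**
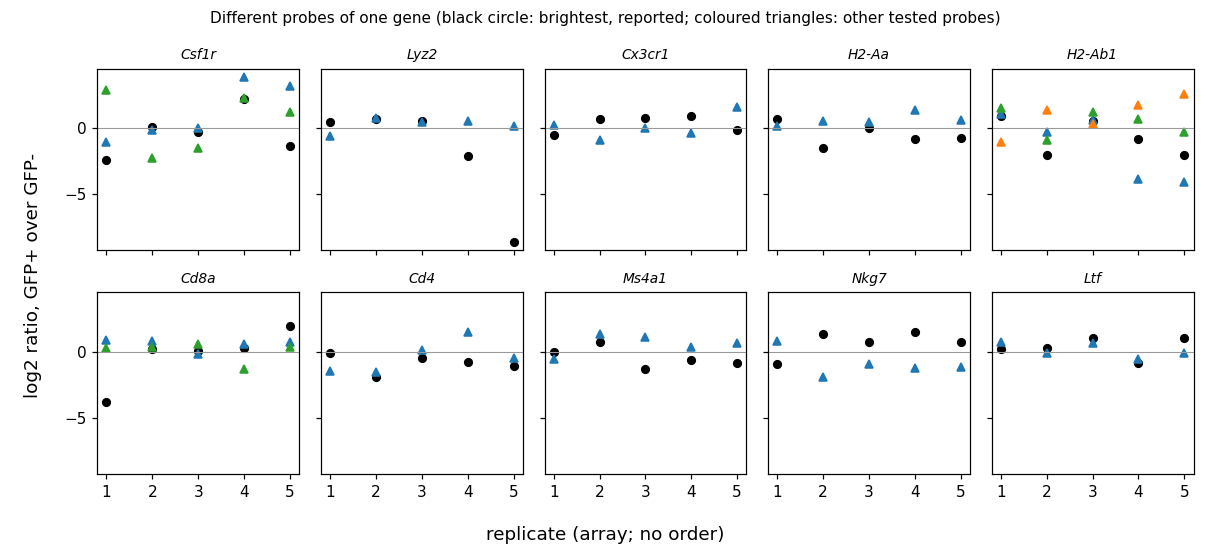
Log2 ratio, GFP+ over GFP-, on each of 5 arrays for the 10 tested genes with several tested probes, the brightest probe as black circles and the others as coloured triangles. The 2 probes of Nkg7 lie on opposite sides of 0 on every array, and so do those of Cx3cr1. The low Lyz2 value of replicate 5 is seen with 1 of 2 probes, and the other was below background in the GFP- channel there.

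Further markers outside the 41 genes gave the same count of calls. Irf8, Xcr1, Klrb1c, Mpo and Fpr1 are named because their unadjusted p in limma was among the 2 lowest of their list. They are extremes picked by their values. Of 18 tested of 20 further macrophage and dendritic genes limma called 0, with 1 at an unadjusted p under 0.05, and 11 means were above 0. The median of their means was 0.21, on the other side of 0 from that of the listed macrophage and dendritic genes. Irf8, a transcription factor of dendritic cells and monocytes, had 0.35, 0.50, 3.37, 2.21 and 1.61 on replicates 1 to 5, above 0 on every array. The only other gene of this list with one sign on all 5 arrays was Msr1, a scavenger receptor of macrophages, with -2.95, -0.42, -1.63, -0.093 and -0.12, all below 0; it was chosen after its values were seen. The mean of Irf8 was 1.61 ± 1.25 (SD, n = 5, adjusted p 0.827, limma). Xcr1, a chemokine receptor of cross-presenting dendritic cells, had 1.04, -0.45, -1.53, -3.84 and -2.22, with replicate 1 alone above 0. Of 18 tested of 20 further lymphocyte genes limma called 0, with 1 at an unadjusted p under 0.05, and 7 means were above 0 (median -0.24). Klrb1c, the NK1.1 antigen, had 0.10, 2.79, 1.01, 0.20 and 2.73, above 0 on every array. Ncr1, another NK cell receptor, named after its values were seen, had the lowest mean of the list, -1.81, with -4.93, 2.20, -0.95, -3.997 and -1.38. The medians of the further lymphocyte genes were 0.56, 0.20, -0.064, -0.31 and -0.52 on replicates 1 to 5, above 0 on 2 arrays. Of 9 tested of 12 further neutrophil genes limma called 0, with 0 at an unadjusted p under 0.05, and 4 means were above 0 (median -0.050). Mpo, the myeloperoxidase of neutrophil granules, had 0.20, -0.46, -1.04, -2.56 and -1.75, and Fpr1, a formyl peptide receptor, had -1.75, 0.68, 5.02, 2.40 and 1.74.

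The epithelial markers of the papilla had medians of -1.32, 1.995, 1.86, 0.99 and 0.53 on replicates 1 to 5, with 10 of 10 genes tested. Those of 4 tested of 5 interstitial genes, whose mean lay above 0 for 2, were 0.31, -0.34, -0.63, -0.38 and -1.09. The summed intensity of the epithelial genes ran from 219134 to 1115890 in the GFP- channel and from 241841 to 1316370 in the GFP+ channel. The tested macrophage and dendritic genes summed to 17148 to 133020.0 in the GFP- and to 10272 to 21392 in the GFP+ channel. Lymphocyte genes, GFP- before GFP+, summed to 9204 to 42324 and to 8549 to 15704. Within the array, the GFP- sum was the higher on 5 of 5 arrays for macrophage and dendritic, on 5 for lymphocyte and on 4 for neutrophil genes. Without the 10 genes that had a single bright value, a choice made after the values were seen, it was 5, 5 and 3 of 5 arrays. Among the lymphocyte genes left, Cd4 was the brightest in every channel, at 175 to 534 times the negative control. It weighs most in their sum, and its second probe did not keep one sign. The summed intensities are as deposited, before loess, and the sum over all 17773 tested genes was higher in the GFP- channel on 4 of 5 arrays. For the further macrophage and dendritic, further lymphocyte and further neutrophil genes it was 3, 4 and 2 of 5. For the interstitial genes it was 5, for the endothelial genes 4 and for the epithelial genes 1. On replicate 1 the epithelial median was below 0 while it was above 0 on the other 4 arrays, and the part of the epithelial share in the leukocyte values was not tested.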

How the data were processed

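Both sorted populations of 5 biological replicates were hybridised to 5 two-channel arrays. The authors deposited, per the file headers, 2 channel intensities on a linear scale, their log10 ratio and a p-value for each probe, made with Agilent Feature Extraction (per the submitters' processing notes, with no version). No call here used the deposited p-value. The deposited series matrix of log10 ratios equals the single arrays within 0.001 except at 0 to 3 probes per array, with column medians of -0.022, 0.00095, 0, 0.011 and 0.052. Its centring is unknown.

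An offset of 50 was added to the intensities, which have no separate background signal here, and each array was normalized by loess (span 0.3, control probes at weight 0, 14 to 41 marked probes left out). Of 41174 probes 32662 were named by the platform annotation, 817 by a RefSeq accession, 907 by the array's name and 389 through a synonym. The remaining 45 with several names and 6354 with none were not used. The brightest probe above the filter stood for a gene. In R 4.3.3, limma 3.58.1 tested each gene's mean ratio against 0 (lmFit and eBayes, two-sided). P-values were adjusted over every tested gene by Benjamini-Hochberg, with a threshold of 0.05. The fit was tested on simulated data whose noise was drawn much smaller than the spread of these arrays. That test therefore does not show what could be called here. The array pairs both populations: after removal of channel means its channels correlated at 0.14, 0.22, 0.29, 0.32 and 0.54. SD is the spread over arrays, and the number of arrays limits the precision. All leukocyte genes were accounted for, with every array's value for those above background in a channel on all 5 arrays. One gene of the further lymphocyte list is counted there but not reported here by name. The members, the lists and the tests were chosen with earlier results of these data known.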

Additional observations from a re-analysis of the deposited data

Results flagged for a closer look

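Among 40 sets of 5 values, one for each tested gene, lineage median and count of genes above background in a channel, 5 had 1 value well apart from the other 4. A nominal 1 in 20 such sets has one by chance alone. The share of all genes with such a value is not given here, so the count is not a result about leukocyte genes. A channel value at least 16-fold above the gene's own median was found for 28.6% of tested leukocyte genes and 27.3% of all genes. Cd74, the invariant chain of class II molecules, had -5.75 on replicate 4. Cd3d, a chain of the T cell receptor complex, had -6.52 on replicate 5. Cd79a, a chain of the B cell receptor, had -6.98 on replicate 2, and Klrd1, of NK cells, had -4.12 on replicate 3. Retnlg, of neutrophils, had 1.96 on replicate 1, the one of these values above 0. In the first 4 the GFP- channel was at least 16-fold above the gene's own median.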

How the results depend on the processing

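Limma called 0 leukocyte genes and 0 of all genes under each of 13 alternatives. The lowest adjusted p of a leukocyte gene was between 0.142 (sign of replicate 1 turned) and 0.988 (both channels treated as 10 separate samples, the fit that is not paired). Leukocyte genes at an unadjusted p under 0.05 numbered 5 (14.3%, all genes 13.9%) with replicate 1 turned, 4 (11.4%, all genes 11.5%) without it and 1 (2.86%, all genes 5.26%) with no filter, and 0 under the others. The number of arrays and their spread limit what could be called, so 0 calls do not show equal levels. Signal above background in the GFP- channel on only 1 array (Adgre1 and the reported Cd8a probe) or 2 arrays (Camp, Cd2), and in the GFP+ channel on 2 (Retnlg), limits those ratios.

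Signs were kept by 17 of 35 genes under the alternatives in which they were tested, and 18 turned under at least 1. The cause was not tested. With the deposited log ratio Cd8a had 0.064 and S100a9 0.24. With both channels required above background Cd8a, then read by another probe, had 0.60. With the mean of all probes Csf1r had 0.46, H2-Aa 0.076, Cd8a 0.15, Ms4a1 0.12 and Nkg7 -0.082. With the sign of replicate 1 turned, Tyrobp had 0.028, Csf1r 0.60, C1qa 0.048, Cd2 0.53, Cd8a 1.29, S100a9 0.10 and Mmp8 0.96, and the lymphocyte median was -0.62. Leaving out 1 replicate in turn gave ranges for Csf1r (-1.01 to 0.14), Cd8a (-0.81 to 0.65), S100a9 (-0.18 to 0.087), Mmp8 (-1.41 to 0.41), Cd2 (-1.53 to 0.19), Cd79b (-0.068 to 0.50), Cd68 (-0.17 to 0.60), H2-Eb1 (-0.35 to 0.35), Klrd1 (-0.87 to 0.49), Ptprc (-1.33 to 0.25), Tyrobp (-0.38 to 0.15), C1qa (-0.53 to 0.066), Adgre1 (-0.29 to 1.15), Ltb (-0.76 to 0.036) and Mmp9 (-0.47 to 0.14). The lymphocyte median then ran from -0.71 to -0.37, and that of the macrophage and dendritic genes from -0.56 to -0.10. That of the neutrophil genes changed sign, from -0.47 to 0.040, and was 0.10 with replicate 1 turned. With all probes averaged the macrophage and dendritic median was -0.13. The number of leukocyte means below 0 ran from 20 with replicate 1 turned to 27 of 35. Over the same settings 47.6% to 52.8% of all genes lay below 0.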

Other observations

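Markers of other blood cells were read in the same way. The genes named from each list had its lowest unadjusted p values in limma. Of 8 mast cell and eosinophil genes 6 were tested, limma called 0 with 0 at an unadjusted p under 0.05, and 1 mean was above 0. Siglecf, a surface lectin of eosinophils, had 3.10, -1.92, -1.26, -2.22 and -2.79 on replicates 1 to 5, with replicate 1 alone above 0. Epx, the eosinophil peroxidase, had 1.86, -0.42, 0.36, 0.064 and 0.25. Of 8 erythroid and platelet genes 5 were tested, limma called 0 with 0 at an unadjusted p under 0.05, and 4 means were above 0. Hba-a1, an alpha globin, had 2.49, -0.33, -5.68, -6.99 and 0.027, and Alas2, the erythroid enzyme of haem synthesis, had 5.95, -1.36, 0.33, -0.15 and 1.62. These genes ranged widely over the arrays, and no direction was shared by all 5.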
